A study of Mus musculus with 2 samples.

Results

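The secreted Wnt antagonists were followed as 10 genes, Sost, Dkk1, Dkk2, Dkk3, Sfrp1, Sfrp2, Sfrp4, Sfrp5, Frzb and Wif1, taken by symbol from the 27998 genes counted in each of 2 single-cell libraries. All 10 were found. The cells were tdTomato+CD31-CD45-Ter119- cells sorted from the metaphysis of the mouse femur, and the comparison asks how the antagonists stood in each kind of Gli1-lineage cell with or without teriparatide, a bone-forming fragment of parathyroid hormone. Both groups carried Gli1-CreERT2; Ai9 on a mixed strain background, were 1 month old and first received tamoxifen for 3 days. The vehicle group then had 3 daily injections of vehicle, and the other group 3 daily injections of teriparatide at 400 ng per g of body weight into the abdomen. Since Cre was driven from Gli1 and switched on by tamoxifen, only cells that used Gli1 at that time, and their progeny, could carry the label. Each group had 5 mice (3 males and 2 females) and 1 library, so no replicate error can be had and no test of the treatment was made. Intervals are exact 95% intervals that cover counting error only, and not the spread between mice or between cells.

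Wnt ligands act on cells of the osteoblast lineage by joining a Frizzled receptor to the co-receptors Lrp5 and Lrp6, which stabilises beta-catenin. Sclerostin, the product of Sost, and the Dickkopf proteins Dkk1 and Dkk2 bind Lrp5 and Lrp6, whereas the secreted Frizzled-related proteins (Sfrp1, Sfrp2, Sfrp4, Sfrp5 and Frzb, also called Sfrp3) and Wif1 bind the ligands themselves. Sclerostin comes mainly from osteocytes, the cells buried in bone matrix, and is the target of a bone-building antibody. Dkk3 is a relative of the Dickkopf proteins whose action on Wnt signaling is less settled.

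The vehicle library held 1286 barcodes and 10567335 UMIs (unique molecular identifiers, each standing for 1 captured mRNA molecule), and the teriparatide library 2142 barcodes and 26270041 UMIs. After limits on genes and mitochondrial UMIs, and without clusters of blood cells, 424 and 607 mesenchymal cells remained. Clusters were named from markers as OB-like (osteoblast, 96 and 93 cells in the vehicle and teriparatide libraries), osteocyte-like (17 and 36), preOB-like (preosteoblast, 57 and 52), MALP-like (marrow adipocyte lineage progenitor, 125 and 82) and COP-like (chondrocyte-like osteoprogenitor, 66 and 264), and 63 and 80 cells stayed unnamed. The osteocyte-like cells, led by Mepe, Dmp1 and Phex, held little of the osteoblast gene Bglap2, at 0 CPM and 10.7 CPM (UMIs of the gene per 1000000 UMIs of the class), but 2878 and 8445 CPM of Col1a1. The mural genes Rgs5 and Acta2 were among the leading genes of the preOB-like cells, in which the 4 mural markers summed to 1840 and 1744 CPM. These sums hide opposite differences, with Acta2 at 667 and 112, Tagln at 583 and 137 and Myh11 at 46.1 and 22.2 CPM. Rgs5 stood at 544 and 1472 CPM and was seen in 3.51% and 9.62% of the cells. In MALP-like cells the 4 mural markers summed to 105 and 502 CPM. Sex by Xist and Y-linked genes marked 180 cells as male and 162 as female with vehicle, against 450 and 50 with teriparatide, so that library and sex moved together, and the part of sex in the differences below was not tested. Markers of hematopoietic cells moved with the library as well, since 11 of them summed to 0 to 93.6 CPM in the 5 classes of the vehicle and to 129 to 258 CPM in those of the teriparatide library. What part these markers had in the levels of the antagonists was not tested. Only 2 barcodes occurred in both libraries, and 1 and 3 cells of mesenchymal clusters were left out because they held UMIs of Ptprc, which encodes CD45.

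RefSeq promoter windows were at hand for 7 of the 10 genes. Those of Sost, Dkk1, Sfrp5 and Wif1 are shown, since these genes had the most restricted expression or the largest number of UMIs. Each is written 5′ to 3′ on the strand of the gene, on GRCm38, and stops just before the start given by RefSeq or GENCODE vM21, whichever lies first. Capitals mark every match, on either strand, to 4 motifs. The TATA box was searched as TATAAA. The motif of RUNX factors, which include the osteoblast regulator Runx2, was searched as TGTGGT. For the core of the cAMP response element, through which parathyroid hormone signaling can act on genes, the letters were TGACG. For TCF/LEF factors, the nuclear partners of beta-catenin, they were CTTTGA, which no shown window held. No matches overlapped.
Sost, chr11:101967016-101967265, minus strand: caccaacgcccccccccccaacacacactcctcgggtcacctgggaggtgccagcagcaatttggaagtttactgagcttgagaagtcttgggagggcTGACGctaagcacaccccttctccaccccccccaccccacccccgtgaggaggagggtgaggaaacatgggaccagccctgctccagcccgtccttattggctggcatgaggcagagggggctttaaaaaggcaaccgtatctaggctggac
Dkk1, chr19:30549666-30549746, minus strand: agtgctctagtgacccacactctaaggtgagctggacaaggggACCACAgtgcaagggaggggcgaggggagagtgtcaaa
Sfrp5, chr19:42202253-42202502, minus strand: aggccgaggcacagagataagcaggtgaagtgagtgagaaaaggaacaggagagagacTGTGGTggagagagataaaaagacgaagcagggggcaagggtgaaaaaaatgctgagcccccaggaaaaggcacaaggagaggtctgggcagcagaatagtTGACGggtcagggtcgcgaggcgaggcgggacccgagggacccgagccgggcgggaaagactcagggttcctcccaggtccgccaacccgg
Wif1, chr10:121033754-121033959, plus strand: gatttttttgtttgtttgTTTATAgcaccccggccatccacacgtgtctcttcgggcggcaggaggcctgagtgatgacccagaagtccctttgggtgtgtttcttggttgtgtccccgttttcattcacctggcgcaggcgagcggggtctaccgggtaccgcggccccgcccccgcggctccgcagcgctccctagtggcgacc
In the window of Sost TGACG lay 152 to 148 bases before the start, and among 32851 promoter windows of the same 250 bases 17.8% held this motif on either strand. The Sfrp5 window held TGACG 91 to 87 and TGTGGT 192 to 187 bases before the start, the latter a motif of 14.0% of all such windows. In the 81 bases of Dkk1 the reverse of TGTGGT lay 38 to 33 bases before the start (4.83% of windows of 81 bases), and in the 206 bases of Wif1 the reverse of TATAAA lay 188 to 183 bases before it (9.38% of windows of 206 bases). The 81 and 206 bases of Dkk1 and Wif1 were those farthest from the RefSeq start, and the windows compared were cut alike. Distances for Dkk1 and Wif1 are from the GENCODE start, so the windows compared may lie at other distances from their own starts. These matches describe letters and are not evidence of binding.

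Most antagonists differed in how their UMIs were spread over the classes, whereas Sfrp1, Sfrp2 and Sfrp4 all lay mostly in MALP-like cells. Sost was seen in osteocyte-like cells and in no other class, Dkk1 in osteocyte-like and OB-like cells, and Sfrp5 in COP-like cells, which held 99.6% of its 1048 UMIs in mesenchymal cells. MALP-like cells held the larger part of Sfrp1 (64.5% of 623 UMIs), Sfrp2 (68.5% of 314) and Sfrp4 (66.8% of 2414). Frzb lay mostly (63.6% of 760 UMIs) in a small unnamed cluster whose leading genes, Col10a1 and Ihh, are those of hypertrophic cartilage. Wif1 was spread over OB-like (33.3%), COP-like (34.4%) and preOB-like cells (25.3% of 4053 UMIs), Dkk3 over MALP-like (41.5%), OB-like (31.1%) and preOB-like cells (21.2% of 472), and Dkk2 had 11 UMIs in all. These shares also follow how many UMIs of all genes a class held. This was 1811067 and 7955785 in COP-like, 694586 and 721251 in preOB-like and 101798 and 279218 in osteocyte-like cells. By CPM, Wif1 was highest of the named classes in preOB-like cells (649 and 796 CPM). Sfrp4 was highest in osteocyte-like cells (717 and 749 CPM), which with vehicle overlapped MALP-like cells (661 CPM). Clusters of blood cells in the same libraries were near 0, with 0 and 9 UMIs of the 10 genes together in the 52 and 165 erythroid-like cells, and 1 and 9 UMIs in the 72 and 442 hematopoietic cells. At least 1 such UMI was seen in 0% and 1.21% of the erythroid-like cells (median 9359.5 and 10463 UMIs per cell), and this is the background against which shares of cells can be read. The genes were kept out of those on which the cells were clustered.

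**Figure D1:**
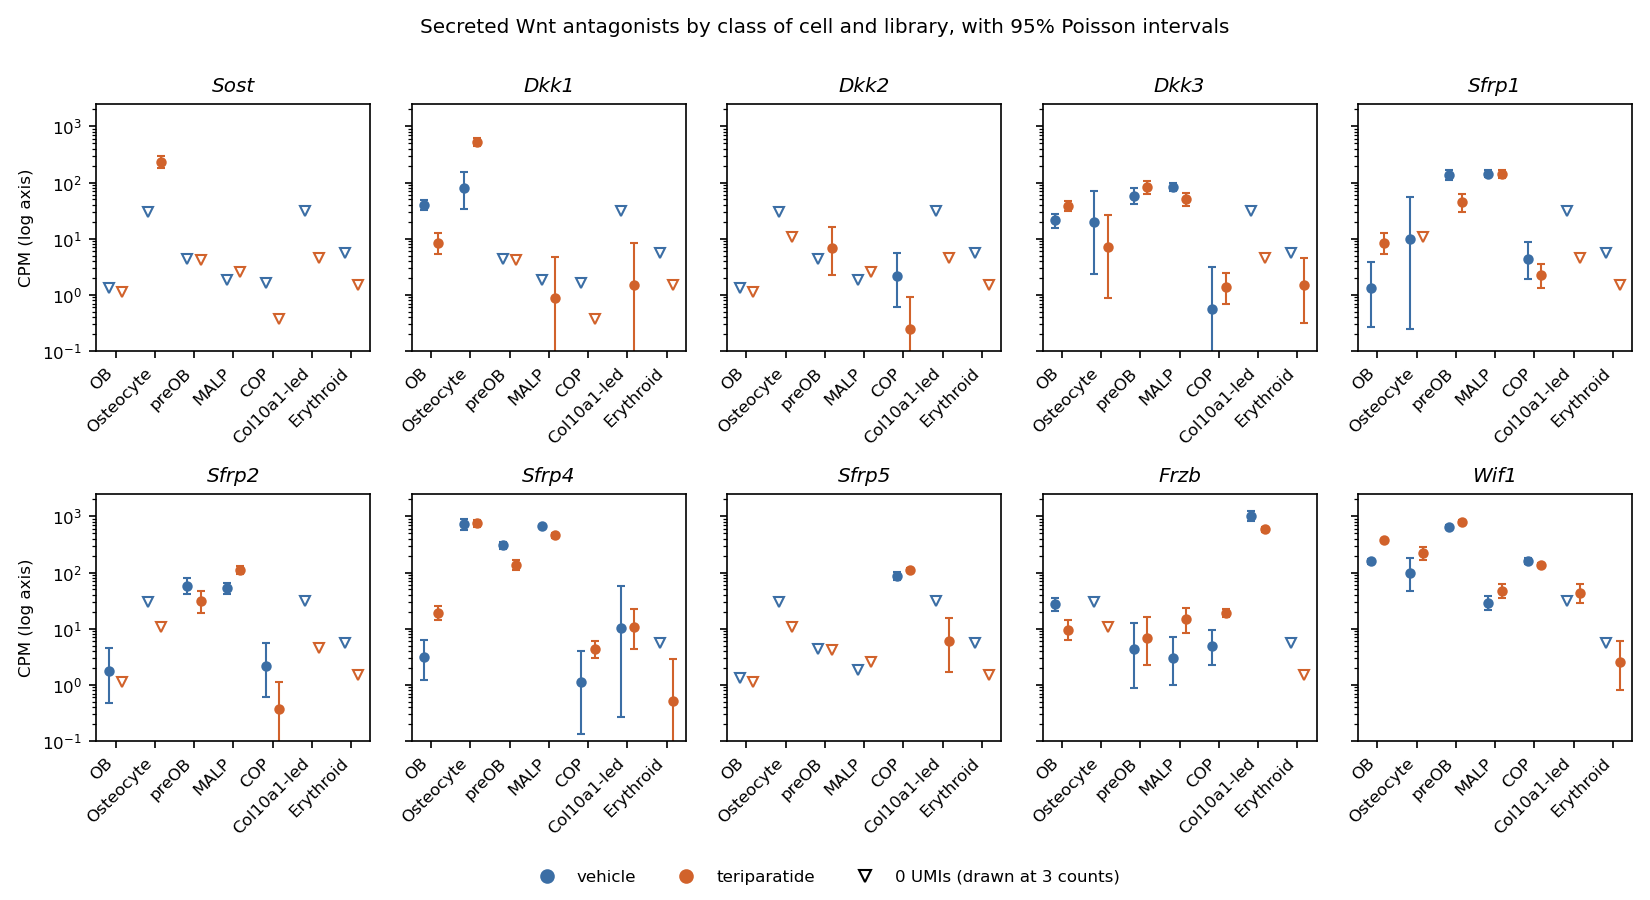
Level of each of the 10 genes (CPM, log axis, with 95% Poisson intervals) in 5 classes, the Col10a1-led cluster and erythroid-like cells of the vehicle (blue) and teriparatide (orange) libraries; open triangles stand for 0 UMIs and are drawn at 3 counts. Sost and Sfrp5 appear in 1 class each, apart from 4 UMIs of Sfrp5 in the Col10a1-led cluster, and Frzb is highest in the Col10a1-led cluster.

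For each class, teriparatide CPM was divided by vehicle CPM and the log2 of this ratio taken, and a gene was counted as past the fold when it differed at least 1.5-fold and the interval left out 0. Of the pairs of an antagonist and a class, 22 had the 50 UMIs over both libraries that were asked for, and 9 of these were higher and 6 lower in the teriparatide library. In the OB-like cells, 3 of 5 antagonists were higher (Dkk3, Sfrp4 and Wif1), against 5.4% of the 6330 genes with 50 UMIs, and 2 were lower (Dkk1 and Frzb), against 11.8%. Markers of osteocytes were also higher in these cells, with Dmp1 at 180 and 794 CPM, Phex at 174 and 236 CPM and Fam20c at 33.9 and 53.9 CPM, whereas Mepe had 1 UMI in each library. Among preOB markers, Postn (28.6 and 114 CPM), Tnn (21.1 and 33.2 CPM) and Runx2 (142 and 193 CPM) were higher too. Sp7 stood at 235 and 232 CPM and Aspn at 6.16 and 0.764 CPM. The MALP marker Lepr stood at 24.6 and 69.9 CPM, and the other MALP markers at 8.36 CPM or less. Of 4 in the osteocyte-like cells, Sost, Dkk1 and Wif1 were higher, against 14.3% of 869 genes, and 0 were lower, against 9.32%. In this class Mepe stood at 4195 and 9734 CPM (70.6% and 86.1% of cells). Phex stood at 1051 and 1576 CPM (94.1% and 77.8% of cells), Dmp1 at 13576 and 15307 CPM and Fam20c at 639 and 645 CPM. No antagonist was higher in the preOB-like cells, where the share of all 4341 genes was 7%, and 3 of 5 were lower (Sfrp1, Sfrp2 and Sfrp4), against 15.9%. These 3 genes had most of their UMIs in MALP-like cells, and 4 of 5 MALP markers were lower in the preOB-like cells as well, with Adipoq at 678 and 54.1 CPM, Cxcl12 at 4123 and 1540.4 CPM, Lepr at 279 and 155 CPM and Vcam1 at 196 and 119 CPM. The other, Pdgfrb, stood at 245 and 372 CPM. Of preOB markers here, Postn stood at 557 and 1601 CPM, Aspn at 655 and 1065 CPM and Tnn at 128 and 207 CPM. Runx2 stood at 310 and 359 CPM and Sp7 at 177 and 143 CPM. With each cell assigned by its own markers, 55 of the 109 clustered preOB-like cells stayed in the class. This was 160 of 189 for OB-like, 51 of 53 for osteocyte-like, 207 of 207 for MALP-like and 324 of 330 for COP-like cells. Sfrp2 and Wif1, of 5, were higher in the MALP-like cells, against 7.07% of 6899 genes, and Dkk3 was lower, against 8.07%. Of the markers of this class, Adipoq stood at 3059 and 1068 CPM (99.2% and 80.5% of cells). Vcam1 stood at 1646 and 1173 CPM, Lepr at 1154 and 847 CPM and Cxcl12 at 25544 and 22352 CPM. Pdgfrb stood at 430 and 449 CPM. In the COP-like cells 1 of 3 (Frzb) was higher and 0 lower, against 5.81% and 14.3% of 9230 genes. The hypertrophic markers Col10a1 (1.66 and 214 CPM) and Ihh (0.552 and 45.8 CPM) were higher in COP-like cells too. The part of these osteocyte, preOB, MALP and hypertrophic markers in the differences of the antagonists was not tested. The median log2 ratio of all these genes was -0.15, 0.06, -0.15, -0.08 and -0.20 in the OB-like, osteocyte-like, preOB-like, MALP-like and COP-like cells, and that of the antagonists 0.84, 1.97, -0.92, -0.01 and 0.34. A gene that reached 50 UMIs through 1 library alone, as Sost did, had to differ, so these counts describe the pairs and do not support a direction.

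**Figure D2:**
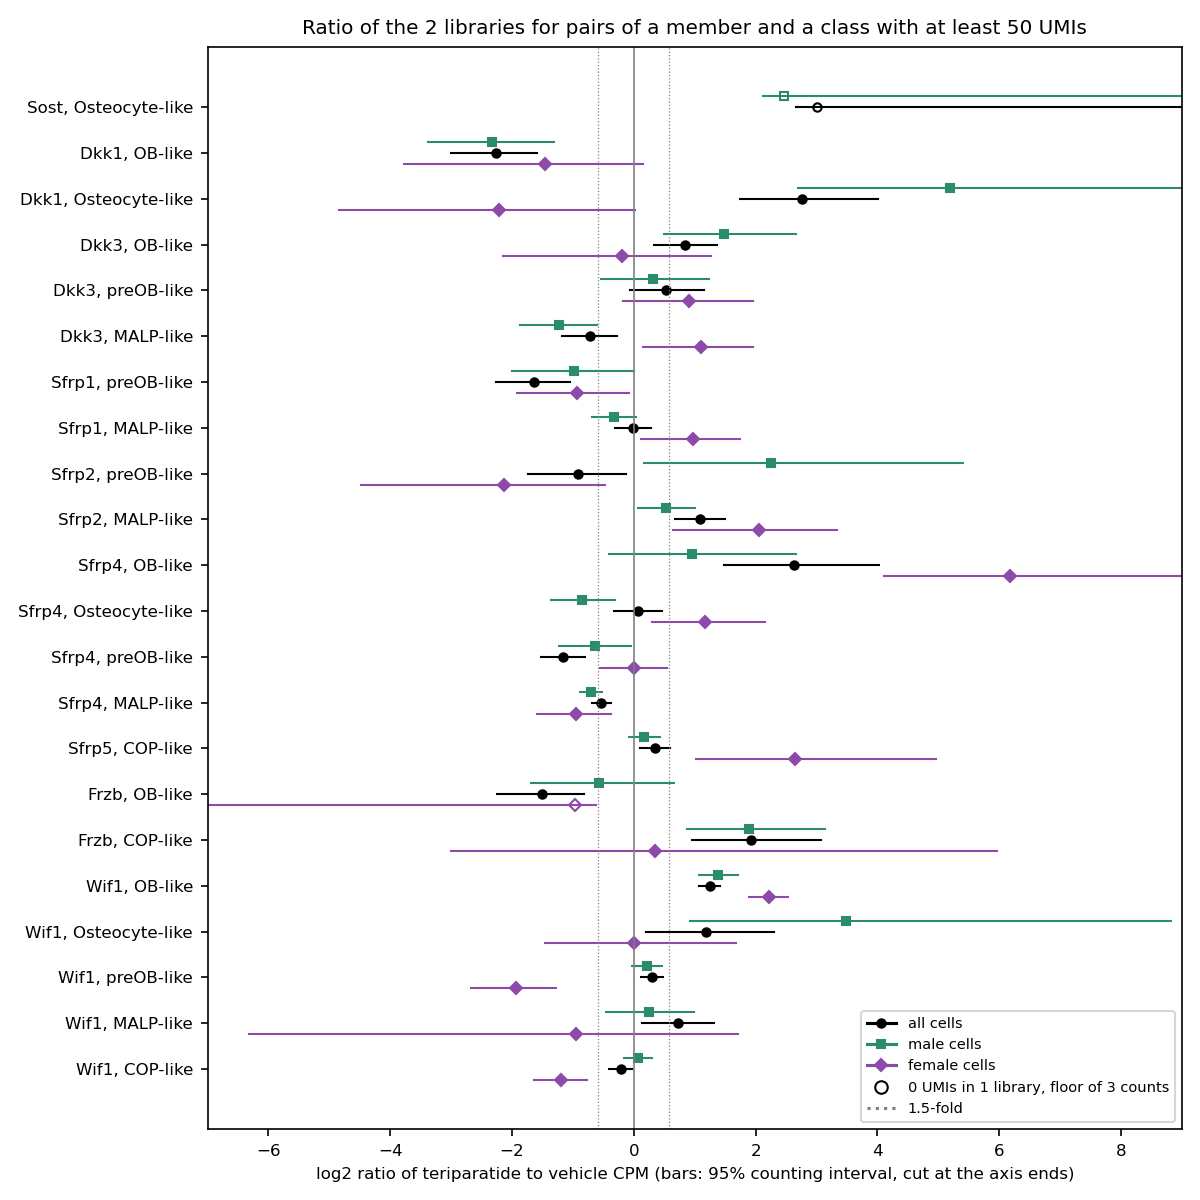
Log2 ratio of teriparatide to vehicle CPM with 95% counting intervals for the 22 pairs of an antagonist and a class with at least 50 UMIs, in all (black), male (green) and female cells (purple); dotted lines mark 1.5-fold. The male and female points lie on opposite sides of 0 for Dkk1 and Sfrp4 in osteocyte-like, Sfrp2 in preOB-like and Dkk3 in MALP-like cells, among others.

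Sost (ENSMUSG00000001494, chromosome 11 from 101962458 to 101967015) had 0 UMIs in the 17 osteocyte-like cells of the vehicle library, a floor of 29.5 CPM at 3 counts, and 66 UMIs or 236 CPM (183–301) in the 36 of the teriparatide library. Set against 3 counts in the vehicle library, these 66 UMIs were 8.02-fold higher, a log2 ratio of 3.00 with a lower limit of 2.67. These UMIs came from 3 cells only. A male cell of 14306 UMIs held 62 of them together with 31 UMIs of Dkk1, 344 of Dmp1 and 54 of Phex. A cell without a call of sex held 3 among 1955 UMIs, and a female cell 1 among 7661. By the exact interval, the 0 of 17 vehicle cells allow up to 19.5% of cells with a UMI, at a median of 5595 UMIs per cell. They limit cells with a UMI and not cells that express Sost. The share with teriparatide was 8.33% (1.75 to 22.5), so a difference in this share was not detectable. Without the 5 cells that held most Sost no UMI of it remained.

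Dkk1 (ENSMUSG00000024868, chromosome 19 from 30545863 to 30549665) showed opposite differences in osteocyte-like and OB-like cells. Osteocyte-like cells had 8 UMIs or 78.6 CPM (33.9–155) in the vehicle and 149 UMIs or 534 CPM (451–627) in the teriparatide library, a log2 ratio of 2.76 (1.75 to 4.002). The level in OB-like cells was 92 UMIs or 40.5 CPM (32.6–49.6) in the vehicle and 22 UMIs or 8.40 CPM (5.27–12.7) in the teriparatide library, a ratio of -2.27 (-3.01 to -1.58). In the vehicle library the osteocyte-like and OB-like levels did not differ beyond counting error (0.96, -0.30 to 1.996), and in the teriparatide library the osteocyte-like level was far above (5.99, 5.34 to 6.71). The UMIs were unevenly spread, since 1 of the 11 vehicle OB-like cells with Dkk1 held 47 of the 92. A UMI was seen in 11.5% (5.86 to 19.6) of vehicle and 9.68% (4.52 to 17.6) of teriparatide OB-like cells. With each cell thinned to 3369 UMIs, 4 of 94 and 2 of 91 were positive. Without the 5 cells of each library that held most Dkk1 the ratio was -1.83 in OB-like cells. Those cells held 80 of the 92 UMIs with vehicle and 18 of the 22 with teriparatide, so this ratio rests on few UMIs. In osteocyte-like cells such a removal had to leave 0 UMIs with vehicle, where only 4 cells held Dkk1. With teriparatide it left 44, so this setting cannot show whether the difference holds. A UMI was seen in 4 of 17 and 16 of 36 osteocyte-like cells (23.5%, 6.81 to 49.9, and 44.4%, 27.9 to 61.9), with medians of 5595 and 6680 UMIs per cell. After thinning each cell to 3369 UMIs, 13.3% and 39.4% of cells were positive. The difference in osteocyte-like cells was that of male cells, with 1 UMI in 8 vehicle and 137 UMIs in 21 teriparatide cells (5.19, 2.69 to 10.5). Female cells, 4 in each library, had 6 and 3 UMIs (-2.22, -4.84 to 0.01). For OB-like cells it was -2.32 (-3.37 to -1.31) in male and -1.46 (-3.77 to 0.15) in female cells. Other named classes held at most 1 UMI of Dkk1 in a library.

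**Figure D3:**
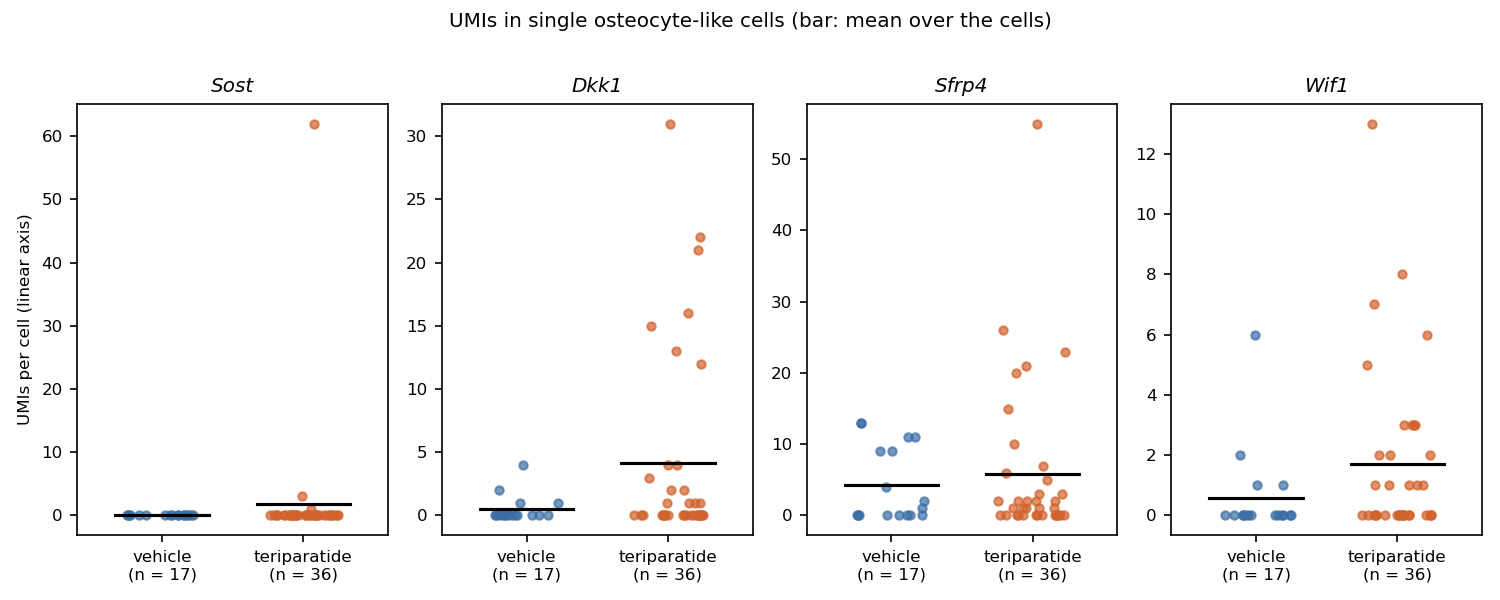
UMIs of Sost, Dkk1, Sfrp4 and Wif1 (linear axes) in each of the 17 vehicle and 36 teriparatide osteocyte-like cells, with the mean over cells as a bar. A single cell holds 62 UMIs of Sost, whereas Dkk1 reaches 31 UMIs in the teriparatide and 4 in the vehicle library.

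Dkk2 (ENSMUSG00000028031, chromosome 3 from 132085292 to 132180304) was hardly detected. The vehicle library held 4 UMIs, all in COP-like cells (2.21 CPM, 0.602 to 5.66), and the teriparatide library 5 in preOB-like (6.93 CPM, 2.25 to 16.2) and 2 in COP-like cells (0.251 CPM, 0.0304 to 0.908). No comparison was made at this depth.

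Dkk3 (ENSMUSG00000030772, chromosome 7 from 112116017 to 112159057) stood at 83.7 CPM (70.3–99.0) in MALP-like, 57.6 CPM (41.1–78.4) in preOB-like and 21.1 CPM (15.6–28.0) in OB-like cells of the vehicle library. In the teriparatide library these values were 50.8 CPM (38.7–65.5), 83.2 CPM (63.5–107) and 37.8 CPM (30.7–46.0), so that the highest class was MALP-like in the vehicle and preOB-like in the teriparatide library. The log2 ratio was -0.72 (-1.19 to -0.27) in MALP-like, 0.53 (-0.07 to 1.15) in preOB-like and 0.84 (0.33 to 1.37) in OB-like cells. Male and female ratios had opposite signs in MALP-like and OB-like cells, but only the MALP-like intervals lay apart. In preOB-like cells the ratio was 0.32 (-0.54 to 1.24) in male and 0.90 (-0.18 to 1.95) in female cells. MALP-like cells had a ratio of -1.23 (-1.87 to -0.60) if male and 1.10 (0.15 to 1.96) if female, and OB-like cells of 1.49 (0.50 to 2.66) in male and -0.20 (-2.14 to 1.27) in female cells. The female values rest on 8 MALP-like and 5 OB-like cells of the teriparatide library. COP-like cells held 1 and 11 UMIs of Dkk3 and osteocyte-like cells 2 in each library.

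Among the Frizzled-related genes, Sfrp1 (ENSMUSG00000031548, chromosome 8 from 23411502 to 23449632) differed between the libraries by less than counting error in MALP-like cells, with 144 CPM (126–164) and 143 CPM (122–166), a log2 ratio of -0.01 (-0.31 to 0.28). It was -0.32 (-0.69 to 0.04) in male and 0.97 (0.12 to 1.74) in female cells. In preOB-like cells it had 138 CPM (112–169) in the vehicle and 44.4 CPM (30.3–62.6) in the teriparatide library, a ratio of -1.64 (-2.26 to -1.05). Both classes were thus alike in the vehicle library (0.06, -0.29 to 0.42), and the MALP-like level was above in the teriparatide library (1.69, 1.14 to 2.28). The preOB-like ratio was -0.99 (-1.99 to 0.0031) in male and -0.94 (-1.92 to -0.07) in female cells. It was 0.79 when each cell was assigned by its own marker score in place of its cluster. OB-like cells held 3 and 22 UMIs and COP-like cells 8 and 18, of which the cluster led by Ppa1 had 7 and 15.

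Sfrp2 (ENSMUSG00000027996, chromosome 3 from 83766321 to 83774316), whose reads may not be separable from those of the overlapping antisense gene Gm26771, was likewise a gene of MALP-like and preOB-like cells. The vehicle library had 52.5 CPM (42.0–64.9) in MALP-like and 57.6 CPM (41.1–78.4) in preOB-like cells, which do not differ beyond counting error. In the teriparatide library MALP-like cells had 111 CPM (92.7–132) and preOB-like cells 30.5 CPM (19.1–46.2), a log2 ratio to the vehicle of 1.08 (0.68 to 1.49) and -0.92 (-1.74 to -0.13). The MALP-like ratio was 0.53 (0.07 to 1.00) in male and 2.05 (0.64 to 3.33) in female cells. In preOB-like cells it was 2.25 (0.17 to 5.41) in male and -2.14 (-4.48 to -0.48) in female cells. In this class the 5 cells richest in Sfrp2 held 36 of the 40 UMIs with vehicle and 17 of the 22 with teriparatide, and without them the ratio was 0.25. OB-like, osteocyte-like and COP-like cells had 0 to 4 UMIs in either library.

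Sfrp4 (ENSMUSG00000021319, chromosome 13 from 19623104 to 19632994), a gene whose loss thins cortical bone, was high in osteocyte-like cells of both libraries, at 717 CPM (562–902) and 749 CPM (650–857), a log2 ratio of 0.06 (-0.33 to 0.47). MALP-like cells had 661 CPM (622–702) and 456 CPM (418–497), below 1.5-fold (-0.53, -0.69 to -0.38). Within each sex the ratio was past 1.5-fold, at -0.71 (-0.89 to -0.52) in male and -0.95 (-1.60 to -0.37) in female cells. The female value rests on 8 teriparatide cells. A UMI of Sfrp4 was seen in 90.4% and 90.2% of MALP-like cells (median 12721 and 13990 UMIs per cell), and after thinning in 75.6% and 63.0%. The preOB-like cells had 307 CPM (267–351) and 137 CPM (112–167), a ratio of -1.16 (-1.52 to -0.81). A single vehicle cell held 86 of the 213 UMIs and 5 cells 165, and without the 5 cells richest in Sfrp4 the ratio was -0.67. In male cells it was -0.64 (-1.23 to -0.05), in female cells 0.01 (-0.56 to 0.55), and 0.30 with cells assigned by marker score. In osteocyte-like cells, the sexes lay on opposite sides of 0, at -0.85 (-1.36 to -0.31) in 8 and 21 male cells and 1.17 (0.30 to 2.15) in 4 and 4 female cells. OB-like cells had 7 UMIs or 3.08 CPM (1.24–6.35) in the vehicle and 50 UMIs or 19.1 CPM (14.2–25.2) in the teriparatide library, a ratio of 2.63 (1.48 to 4.02). It was 0.95 (-0.41 to 2.67) in male cells, 6.18 (4.10 to 9.33) in female cells, of which the teriparatide library had 5, and -1.05 with cells assigned by marker score.

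Sfrp5 (ENSMUSG00000018822, chromosome 19 from 42197971 to 42202252) was restricted to cartilage-like cells. COP-like cells had 159 UMIs or 87.8 CPM (74.7–103) in the vehicle and 885 UMIs or 111 CPM (104–119) in the teriparatide library, a log2 ratio of 0.34 (0.10 to 0.59), and OB-like, osteocyte-like, preOB-like and MALP-like cells had 0 UMIs in both. Of the 3 COP-like clusters, that led by Meg3, Cytl1 and Cpm, which also had Sfrp5 among its leading genes, held most of it, with 209 CPM (174–250) in its 25 vehicle cells and 297 CPM (276–318) in its 100 teriparatide cells. Chad led another of the clusters, with 43.8 and 25.4 CPM, and Ppa1 the last, with 11.7 and 8.97 CPM. A UMI was seen in 72.0% (50.6 to 87.9) and 66.0% (55.8 to 75.2) of the Meg3-led cells, with medians of 24492 and 27110 UMIs per cell, and in 36.0% and 44.9% after thinning. Of its cells 24 were male and 1 female with vehicle, and 95 male and 1 female with teriparatide, so its level of Sfrp5 is that of male cells. Female COP-like cells held 3 UMIs in 11 vehicle and 59 UMIs in 25 teriparatide cells (2.64, 1.02 to 4.96), 58 of the latter in 5 cells of the Chad-led cluster. In male cells the class had a ratio of 0.16 (-0.09 to 0.42). Without the 5 cells of each library richest in Sfrp5, the ratio of all COP-like cells was 1.28. These were 5 of 66 vehicle and 5 of 264 teriparatide cells, and they held 61.6% and 22.8% of the UMIs. The removal was thus unequal, and 1.28 cannot be read as a larger difference.

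Frzb (ENSMUSG00000027004, chromosome 2 from 80411970 to 80447625), first isolated from cartilage, was highest in the unnamed Col10a1-led cluster, with 1030 CPM (837–1253) in 8 vehicle and 585 CPM (528–647) in 22 teriparatide cells, a log2 ratio of -0.81 (-1.14 to -0.48). The leading genes of this cluster include Frzb, and 51 of the 99 vehicle UMIs lay in a single cell. Of the cells with a call of sex in this cluster, 5 and 19 were male and 0 female. In the 5 named classes, OB-like cells had most Frzb in the vehicle library, at 27.3 CPM (20.9–35.0), and 9.55 CPM (6.18–14.1) in the teriparatide library, a ratio of -1.51 (-2.25 to -0.82). Male OB-like cells had 14.9 and 10.1 CPM (-0.57, -1.70 to 0.67), and female cells 50 UMIs in 58 vehicle and 0 UMIs in 5 teriparatide cells. The opposite difference was measured in COP-like cells, which had 9 UMIs or 4.97 CPM (2.27–9.43) in the vehicle and 150 UMIs or 18.9 CPM (16.0–22.1) in the teriparatide library, a ratio of 1.92 (0.96 to 3.08). Col10a1 was seen in 4.55% and 18.6% of these cells and Ihh in 1.52% and 10.98%. By cluster of the teriparatide library, Col10a1 stood at 413 CPM in Chad-led, 178 CPM in Meg3-led and 22.4 CPM in Ppa1-led cells. Ihh stood at 29.3, 8.62 and 105 CPM in the same order, and the relation of these markers to Frzb was not tested. The Frzb ratio was 0.89 with cells assigned by marker score, 1.90 (0.88 to 3.14) in male and 0.34 (-2.996 to 5.96) in female cells. Within the class the Meg3-led cluster had 5 and 94 UMIs (2.07, 0.80 to 3.73), the Ppa1-led cluster 4 and 51 (1.63, 0.19 to 3.56) and the Chad-led cluster 0 and 5. A UMI was seen in 7.58% and 20.5% of COP-like cells (medians 28718.5 and 30875 UMIs per cell), but in 1.54% and 1.92% after thinning, where 1 and 5 cells with 1 and 6 UMIs remained. MALP-like cells had 5 and 17 UMIs and preOB-like cells 3 and 5. Osteocyte-like cells had 0 in both libraries.

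**Figure D4:**
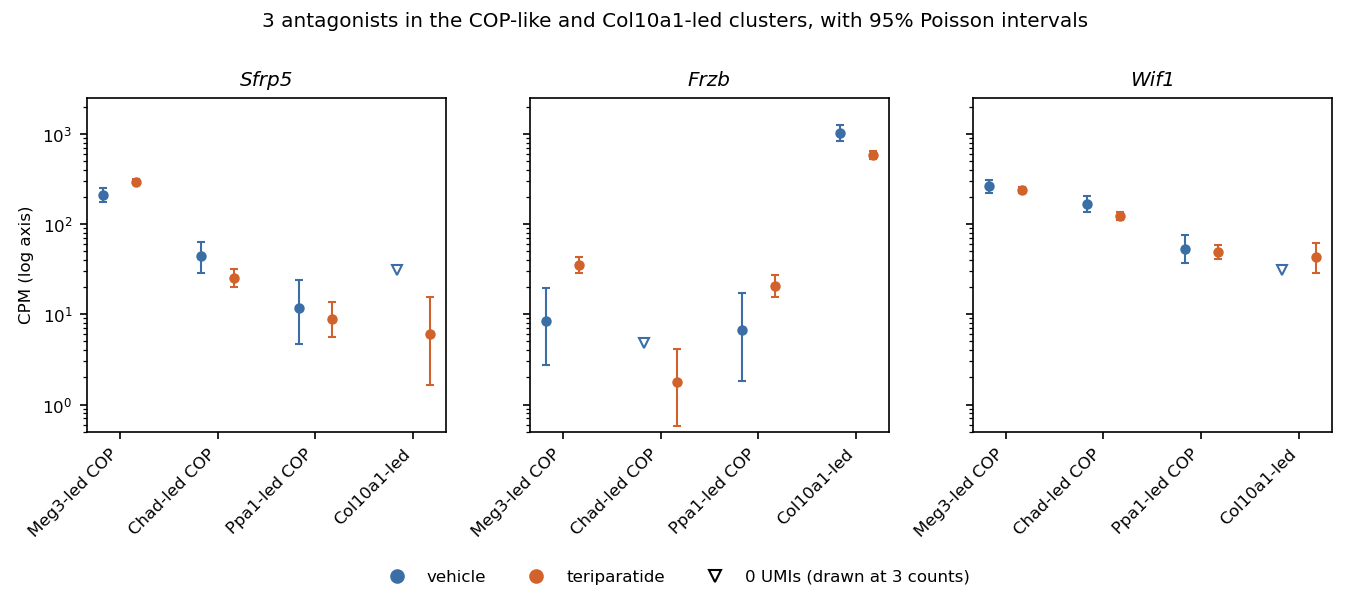
Level of Sfrp5, Frzb and Wif1 (CPM, log axis, with 95% Poisson intervals) in the 3 COP-like clusters and the unnamed Col10a1-led cluster of the vehicle (blue) and teriparatide (orange) libraries; open triangles stand for 0 UMIs and are drawn at 3 counts. By CPM, Sfrp5 and Wif1 are highest in the Meg3-led cluster, whereas Frzb reaches 1030 and 585 CPM in the Col10a1-led cluster. In the vehicle library 5 Meg3-led cells hold 143 of the 157 UMIs of Wif1. A UMI of Wif1 was seen in 40% of the Meg3-led cells of each library and in 73.9% and 57% of the Chad-led cells.

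Wif1 (ENSMUSG00000020218, chromosome 10 from 121033960 to 121100650) was highest in preOB-like cells, with 649 CPM (591–712) in the vehicle and 796 CPM (732–864) in the teriparatide library, a log2 ratio of 0.29 (0.11 to 0.47) that stayed below 1.5-fold. A single teriparatide cell held 107 of the 574 UMIs. The ratio was 0.22 (-0.03 to 0.47) in male cells, -1.94 (-2.68 to -1.27) in female cells and -0.36 without the 5 cells richest in Wif1. OB-like cells had 362 UMIs or 159 CPM (143–177) in the vehicle and 987 UMIs or 377 CPM (354–401) in the teriparatide library, a ratio of 1.24 (1.07 to 1.42). It was 1.39 (1.07 to 1.71) in male, 2.22 (1.89 to 2.54) in female and 0.94 in thinned cells, and 1.80 without the 5 cells of each library that held most Wif1. The share of OB-like cells with a UMI was 62.5% (52.0 to 72.2) and 91.4% (83.8 to 96.2), with medians of 17601.5 and 25465 UMIs per cell, and 29.8% and 59.3% after thinning. Osteocyte-like cells had 98.2 CPM (47.1–181) and 222 CPM (170–285), a ratio of 1.18 (0.20 to 2.31) from 10 and 62 UMIs, with 3.49 (0.93 to 8.82) in male and 0.01 (-1.46 to 1.67) in female cells. In COP-like cells the levels were 161 CPM (143–181) and 139 CPM (131–147), below 1.5-fold (-0.22, -0.40 to -0.03), with 0.07 (-0.15 to 0.30) in male and -1.20 (-1.64 to -0.76) in female cells. In the vehicle library OB-like and COP-like cells held alike levels of Wif1 (COP-like over OB-like 0.02, -0.21 to 0.24), and in the teriparatide library the classes ran from preOB-like over OB-like, osteocyte-like and COP-like to MALP-like, each apart from the next. MALP-like cells had 28.7 CPM (21.1–38.2) and 47.4 CPM (35.7–61.6), a ratio of 0.72 (0.13 to 1.32) that was below 0 in female cells (-0.95, -6.33 to 1.72), under a mitochondrial limit of 20% (-0.28) and with cells assigned by marker score (-0.77).

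Taken as a sum, the UMIs of all 10 genes were 254 CPM (234–276) in the vehicle and 460 CPM (435–487) in the teriparatide library in OB-like cells, where Wif1 made up most of them, and 923 CPM (746–1130) and 1748 CPM (1596–1910) in osteocyte-like cells. They were 1214 and 1105 CPM in preOB-like, 973 and 824 CPM in MALP-like and 264 and 277 CPM in COP-like cells. The median MALP-like cell held UMIs of 3 of the 10 genes in both libraries and the median COP-like cell of 1. In MALP-like cells Sfrp4 and Sfrp1 were seen in the same cell in 73 of the 125 with vehicle and 49 of the 82 with teriparatide. Of the 36 teriparatide osteocyte-like cells, 10 held both Dkk1 and Sfrp4, 6 Dkk1 alone, 12 Sfrp4 alone and 8 neither. In the Meg3-led cluster Sfrp5 and Frzb were seen together in 2 of 25 vehicle and 32 of 100 teriparatide cells, and Sfrp5 and Wif1 in 7 and 28. Cells of more UMIs show more genes, so these counts carry the depth of the cells.

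Over 17 sums of a cluster and a library with at least 10 cells, the genes most like each antagonist were named by Pearson's r of log2(CPM + 1) among 8014 genes with at least 200 UMIs. The clusters of 1 library share cells, depth and treatment, so these values are a description. Sfrp5 was most like Cpm (r = 0.98), Nkx6-1 (0.97) and Ifitm10 (0.96), Sfrp2 most like Gstt1, Rarres2 and Fbln5 (0.97 each) and Sfrp4 most like Ece1 (0.97), Zak (0.95) and Shroom3 (0.94). The genes most like Sfrp1 were Nsg1 (0.97), Igfbp4 (0.94) and Sp100 (0.93), and those most like Dkk3 were Kctd12b (0.94), Rtn4rl1 (0.94) and Ifngr1 (0.92). For Dkk1 these were RP23-457J22.1, Bambi and Nupr1 (0.88, 0.88 and 0.87). Wif1 (Olfml3, 0.81, Slc44a1, 0.74, and Fam167a, 0.71) and Frzb (Cds1, 0.74, Pank1, 0.73, and Dnajc19, 0.72) had looser neighbours. Sost and Dkk2 had too few UMIs.

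Other genes of the pathway were read in 6 lists, 69 genes in all, of which 22, 5, 17, 28 and 33 had 50 UMIs in the OB-like, osteocyte-like, preOB-like, MALP-like and COP-like cells. Past the fold, 5 were higher and 3 lower in OB-like, 0 and 0 in osteocyte-like, 3 and 7 in preOB-like, 6 and 0 in MALP-like and 1 and 2 in COP-like cells. Over all genes these shares were 5.4% and 11.8%, 14.3% and 9.32%, 7% and 15.9%, 7.07% and 8.07%, and 5.81% and 14.3%. The pathway genes did not exceed them in COP-like cells, in osteocyte-like cells, where only 5 were counted, or for lower genes in MALP-like cells. The 3 of 22 lower in OB-like cells were near the share of all genes. Of the ligands and receptors, Wnt4 was lower in OB-like cells (246 and 109 CPM, a log2 ratio of -1.17, -1.38 to -0.96). Wnt5a (14.1 and 28.4 CPM, 1.02, 0.20 to 1.85), Fzd2 (14.7 and 37.0 CPM, 1.34, 0.58 to 2.12) and Fzd8 (20.8 and 41.3 CPM, 0.99, 0.33 to 1.67) were higher in MALP-like cells, and Fzd8 also in COP-like cells (1.08, 0.14 to 2.19). Among the feedback targets, Notum, an enzyme that inactivates Wnt ligands, was higher in OB-like cells (11.4 and 44.7 CPM, 1.97, 1.34 to 2.64), whereas Axin2 (-0.86, -1.66 to -0.01) and Lef1 (-0.59, -0.84 to -0.33) were lower in COP-like cells, and Bambi (-1.64, -2.26 to -1.05) and Nkd2 (-1.40, -2.18 to -0.67) in preOB-like cells. The transcription factor Tcf7l2 was higher in OB-like cells (21.1 and 65.3 CPM, 1.63, 1.16 to 2.12). Igfbp4, which can also bind Lrp6, was lower in preOB-like cells (4909 and 1348 CPM, -1.87, -1.97 to -1.76).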

How the data were processed

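Cells of both libraries were captured on the 10x Genomics platform. The authors aligned reads to mm10 and counted UMIs with Cell Ranger 2.1.0, and the deposited values are raw counts per gene and cell (the header of the matrices names software version 3.1.0). Cells with 200 to 6000 genes and at most 10% mitochondrial UMIs were kept (549 and 1217), integrated by canonical correlation analysis in Seurat 5.3.0 (R 4.3.3; 2000 variable genes without the 136 genes of all lists, 20 principal components, resolution 0.6) and clustered. Clusters were named from at least 3 markers, each seen in 10% of cells and above the mean of the other clusters. A cluster stayed unnamed when its 10 leading genes held more markers of another list, as did 113 cells of low depth led by Gm26917, S100a9 and S100a8. UMIs were summed per class and library. Levels have exact Poisson, shares Clopper-Pearson and ratios conditional binomial 95% intervals, which cover counting error only (Python 3.11.15, scipy 1.17.1), and a count of 0 was set at 3 counts. The rule was run on simulated Poisson counts of class sums. These held no spread between cells or mice, so they cannot show how the rule fares with such spread. Scrublet (scanpy 1.11.5) called 1 doublet, and none was removed. Cells were thinned to 3369 UMIs, the 10th percentile. The pooling of 5 mice in each library is assumed. Whether counting used strand is not given in the sources used here. The antagonists and all lists were chosen with earlier results of these data known. Named were all 10 antagonists, the 3 genes most like each with at least 200 UMIs, and per class the 3 other Wnt genes with the largest ratio past the fold.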

Additional observations from a re-analysis of the deposited data

Results flagged for a closer look

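For 5 antagonists the log2 ratio of teriparatide to vehicle CPM was past the fold in opposite directions in different classes. The difference between the classes was 5.03 for Dkk1 (osteocyte-like minus OB-like), 3.79 for Sfrp4 (OB-like minus preOB-like), 3.44 for Frzb (COP-like minus OB-like), 1.997 for Sfrp2 (MALP-like minus preOB-like) and 1.56 for Dkk3 (OB-like minus MALP-like). All of these but that of Frzb hold a class whose ratio changed sign in another setting, as listed below. For Frzb this is no measure of stability. Its 9 vehicle UMIs in COP-like cells lay in 5 cells, so removing the 5 richest left no UMI there. After thinning, 1 and 5 COP-like cells were positive. Female OB-like cells had 0 UMIs with teriparatide, and the male OB-like ratio was -0.57 (-1.70 to 0.67). In 3 pairs the male and the female cells of a class were past the fold in opposite directions. The male minus the female ratio was -2.02 for Sfrp4 in osteocyte-like cells, 4.38 for Sfrp2 in preOB-like cells and -2.33 for Dkk3 in MALP-like cells. With 1 library for each condition, none of these differences was tested, and the part of sex, mouse or cell number in them was not tested either.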

How the results depend on the processing

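In all, 15 other settings were tried, 1 of them (the low-depth cluster counted as MALP-like) chosen after seeing the data. Of 306 recomputed ratios, 22 changed sign, 12 of them of pairs past the fold. The other 10 were of pairs not past the fold: 2 each in male, female and thinned cells, with scaling by the median ratio and without the 5 richest cells. In 16, a library had 0 UMIs and the ratio was taken against 3 counts. Of the 306 ratios, 244 were classed as the same, 50 as moved and the 12 above as reversed. Classed as the same were 2 of 21 in female, 7 of 22 in male and 12 of 22 in thinned cells, and 14 of 22 by marker score. All 22 were the same at resolutions 0.4 and 1.0, with all variable genes, and without called doublets or shared barcodes. The 1 called doublet was not a mesenchymal cell, so its removal could change no ratio, and only 2 barcodes were shared. At resolution 0.4 the OB-like, MALP-like, preOB-like and osteocyte-like clusters had the same numbers of cells (189, 207, 109 and 53). The share of 22 in 306 is thus no measure of stability. Of the pairs past the fold, those that changed sign in female cells were Dkk3 in OB-like (-0.20) and MALP-like (1.10), Dkk1 in osteocyte-like (-2.22), Sfrp4 in preOB-like (0.0065) and Wif1 in MALP-like cells (-0.95). In male cells this was Sfrp2 in preOB-like cells (2.25), which was also 0.25 without the 5 cells richest in it. With cells assigned by marker score, Sfrp4 in OB-like (-1.05), Sfrp1 (0.79) and Sfrp4 (0.30) in preOB-like and Wif1 in MALP-like cells (-0.77) changed sign, as did the last (-0.28) with up to 20% mitochondrial UMIs. The cause was not tested. The numbers past the fold, 9 higher and 6 lower, were 6 and 2 with every cell thinned. The number of antagonists with the same highest class in both libraries was 5, and 3 in female cells and with each cell weighing the same. No paired analysis was possible because each group has 1 library. The small number of osteocyte-like and of female teriparatide cells limits every ratio that rests on them.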

Other observations

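Barcodes left out by the limits, 737 with vehicle and 925 with teriparatide, held UMIs of most antagonists and went into no comparison. Wif1 had 175 and 117 CPM in them, Sfrp4 57.9 and 20.3 CPM, Sfrp1 49.3 and 6.63 CPM, Frzb 14.0 and 19.2 CPM and Dkk1 3.49 and 2.06 CPM. Sost had 0 UMIs in either. Most of these barcodes with a UMI of Wif1, 115 of 121 and 89 of 102, exceeded the mitochondrial limit.

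The unnamed cluster of low depth (55 and 58 cells, with medians of 3188 and 1225 UMIs) held 212 and 59 UMIs of the 10 antagonists. Sfrp4 stood at 508 and 81.6 CPM there, Sfrp1 at 169 and 66.8 CPM and Wif1 at 254 and 245 CPM. Hematopoietic markers summed to 31.8 and 9276 CPM in the same cells.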
